A study of Mus musculus with 12 samples.

Results

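Sycp3 and Tesmin, genes of meiotic germ cells, were followed with their companions Sycp1, Sycp2, Dazl, Ddx4 and Mael across 4 lines of mouse embryonic stem (ES) cells that differ in the transcription factor gene Rex1, also named Zfp42. A probe was taken wherever the array's gene name or description named one of these 7 genes. Of 20280 gene probes, 9 did, for 6 of the genes: 1 probe for Sycp3, 3 for Tesmin (older name Mtl5), 1 each for Sycp1, Sycp2 and Dazl, and 2 for Ddx4, while no probe was named for Mael. EB5 is wild type, RKPG9 is Rex1+/-, and HP3 and HP4 are Rex1-/-. All derive from E14tg2a ES cells, which grow without feeder cells in medium with leukemia inhibitory factor. In the mutant allele a puromycin resistance and EGFP fusion cassette takes the place of the start of the coding sequence. The study made Rex1-/- lines from Rex1+/- cells by gene conversion under puromycin or with another targeting vector, and which of these gave HP3 and HP4 is not given in the sources used here. Each genotype is carried by 1 or 2 lines. Each line was hybridized to 3 two-color arrays, with the line in Cy3 and a common Universal Mouse Reference RNA in Cy5. The level given for a probe is the log2 of line over reference, and a difference is the difference of 2 line means of that value. No label ties the 3 arrays of a line to separate cultures, so the errors and p-values below cover array-to-array spread that may be technical. In a bulk sample, fewer cells that express a gene and less RNA in each cell cannot be told apart.

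Sycp3 builds the axes along which meiotic chromosomes shorten, and with Sycp2 it forms the lateral elements of the synaptonemal complex, while Sycp1 forms the transverse filaments that hold paired chromosomes together. Sycp3 lies at chr10:88459587-88473236 and Tesmin at chr19:3388857-3407823 (GRCm38.p6). Tesmin is a testis protein with cysteine-rich CXC domains, named for a likeness to metallothioneins. Dazl and Ddx4 are RNA-binding proteins of germ cells, and Mael serves in the piRNA pathway that silences transposons. Many genes of this kind are held down in ES cells by DNA methylation and by a Polycomb complex that contains E2f6, Max and Mga, which bind an E2F element and an E-box.

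The sequences before the start sites of Sycp3, Tesmin and the companions Sycp1 and Dazl are shown for those elements. They are the 250 bases before the RefSeq start in the GRCm38.p6 assembly, 5′ to 3′ on the gene's own strand: Sycp3 at chr10:88459337-88459586 (plus strand), Sycp1 at chr3:102936101-102936350 (minus strand), Dazl at chr17:50293621-50293870 (minus strand) and Tesmin at chr19:3388607-3388856 (plus strand). Capitals mark the E-box CACGTG and the E2F element TCCCGC on either strand (GCGGGA), which do not overlap in these windows.
Sycp3: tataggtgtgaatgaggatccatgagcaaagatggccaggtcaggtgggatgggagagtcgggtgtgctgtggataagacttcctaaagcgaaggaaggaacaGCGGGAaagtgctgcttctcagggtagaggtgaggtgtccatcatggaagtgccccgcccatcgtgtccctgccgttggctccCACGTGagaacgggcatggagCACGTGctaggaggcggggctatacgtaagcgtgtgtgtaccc
Sycp1: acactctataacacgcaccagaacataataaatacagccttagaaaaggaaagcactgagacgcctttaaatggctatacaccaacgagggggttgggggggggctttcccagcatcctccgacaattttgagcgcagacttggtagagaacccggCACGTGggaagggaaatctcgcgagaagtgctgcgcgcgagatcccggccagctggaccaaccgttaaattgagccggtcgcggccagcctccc
Dazl: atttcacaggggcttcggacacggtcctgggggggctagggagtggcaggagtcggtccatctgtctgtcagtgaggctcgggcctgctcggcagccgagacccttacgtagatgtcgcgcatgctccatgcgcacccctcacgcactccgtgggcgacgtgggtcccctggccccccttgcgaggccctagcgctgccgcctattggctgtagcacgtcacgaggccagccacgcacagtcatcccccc
Tesmin: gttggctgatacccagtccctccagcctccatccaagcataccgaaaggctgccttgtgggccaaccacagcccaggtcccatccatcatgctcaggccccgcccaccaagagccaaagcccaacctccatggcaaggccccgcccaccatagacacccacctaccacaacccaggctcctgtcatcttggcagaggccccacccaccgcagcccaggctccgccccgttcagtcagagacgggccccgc
The Sycp3 window holds 2 E-boxes, which begin 64 and 43 bases before the start, and 1 E2F element 147 bases before it. The Sycp1 window holds 1 E-box, 94 bases before the start. These letters are absent from the Dazl window and from this Tesmin window, while the window before a further annotated Tesmin start, at chr19:3389128-3389377, holds 1 of each. The window before Sycp2, at chr2:178407659-178407908 on the minus strand and not printed here, holds neither and has 7 CG pairs. Of 32851 windows of the same length, 6.02% hold the E-box and 16.9% the E2F element. CG pairs number 12 before Sycp3, 17 before Sycp1, 20 before Dazl and 8 in the printed Tesmin window, against a median of 6 over all windows. The window before the further Tesmin start has 38. The Ddx4 and Mael windows, not printed here, each hold 1 E-box and 1 E2F element, with 31 and 18 CG pairs. A match of letters is a description and does not show binding.

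All 4 lines carried the profile of ES cells. All 10 measured genes of a list of 12 pluripotency markers were well above background in Cy3 on every array. Their summed ratio to the reference lay between 101 and 127 on the EB5 arrays, 129 and 162 on RKPG9, 138 and 157 on HP3, and 98.8 and 118 on HP4. The targeted gene Zfp42 is among these 10, and its high ratio is part of each sum. The median log2 ratio of the 10 ran from 2.55 for HP4 to 3.02 for RKPG9. In each line, 9 or 10 of them stood above the reference. The 9 measured markers of differentiated and fibroblast-like cells summed to between 3.17 and 4.54, and the 11 measured markers of gonadal somatic cells to between 9.41 and 10.5. The 2 probes of the targeted gene Zfp42 read between 5.22 and 6.11 on all 12 arrays; the mutant allele still yields a truncated Rex1 transcript, so they do not check the genotype. Between 85.3% and 94.5% of gene probes were well above background in Cy3. Spots were extracted in 2 sessions of the scanner software, EB5 alone in the first, with global background adjustment on, and the other 9 arrays in the second, with it off, so any difference from EB5 cannot be told apart from that session. Comparisons among RKPG9, HP3 and HP4 lie within 1 session.

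Sycp3 was highest in HP3, while HP4, the other Rex1-/- line, overlapped wild type EB5 and the Rex1+/- line RKPG9. The probe A_65_P13500 gave EB5 values of 2.35, 2.23 and 2.38, RKPG9 values of 2.16, 2.01 and 2.09, HP3 values of 3.01, 3.50 and 3.18, and HP4 values of 1.67, 2.16 and 2.25. All 3 HP3 arrays lay above all 9 others, RKPG9 lay just below EB5, and HP4 overlapped both. The line means were 3.23 ± 0.25 in HP3, 2.32 ± 0.08 in EB5, 2.08 ± 0.08 in RKPG9 and 2.02 ± 0.31 in HP4 (SD, n = 3), so the order of HP4 and RKPG9 was within their spread. Because the gene was chosen with results of these arrays known, its differences are given without a test.

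HP3 exceeded EB5 by 0.91 (standard error 0.14), which is 1.88-fold, and RKPG9 by 1.15 (standard error 0.14), which is 2.21-fold. HP4 fell by 1.20 from HP3 (standard error 0.14), which is 2.30-fold. These folds are ratios to a reference signal that was near background on the RKPG9, HP3 and HP4 arrays. HP4 differed from EB5 by -0.30 and from RKPG9 by -0.06, and RKPG9 from EB5 by -0.24, each with a standard error of 0.14. Arrays that all lay higher, as for Sycp3 in HP3, were seen at 17.8% of all probes against EB5 and 21.0% against RKPG9, and arrays that all lay lower in HP4 than in HP3 at 21.5%. All RKPG9 arrays lay below all EB5 arrays at 30.8% of probes. Pluripotency markers moved between the same lines: of 10 measured, 7 were lower and 0 higher in HP4 than in HP3 (limma, Benjamini-Hochberg adjusted p under 0.05), where 28.6% of all probes were called, 14.8% as lower, and their part in the Sycp3 difference was not tested. The targeted gene Zfp42 is among the 7.

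**Figure D1:**
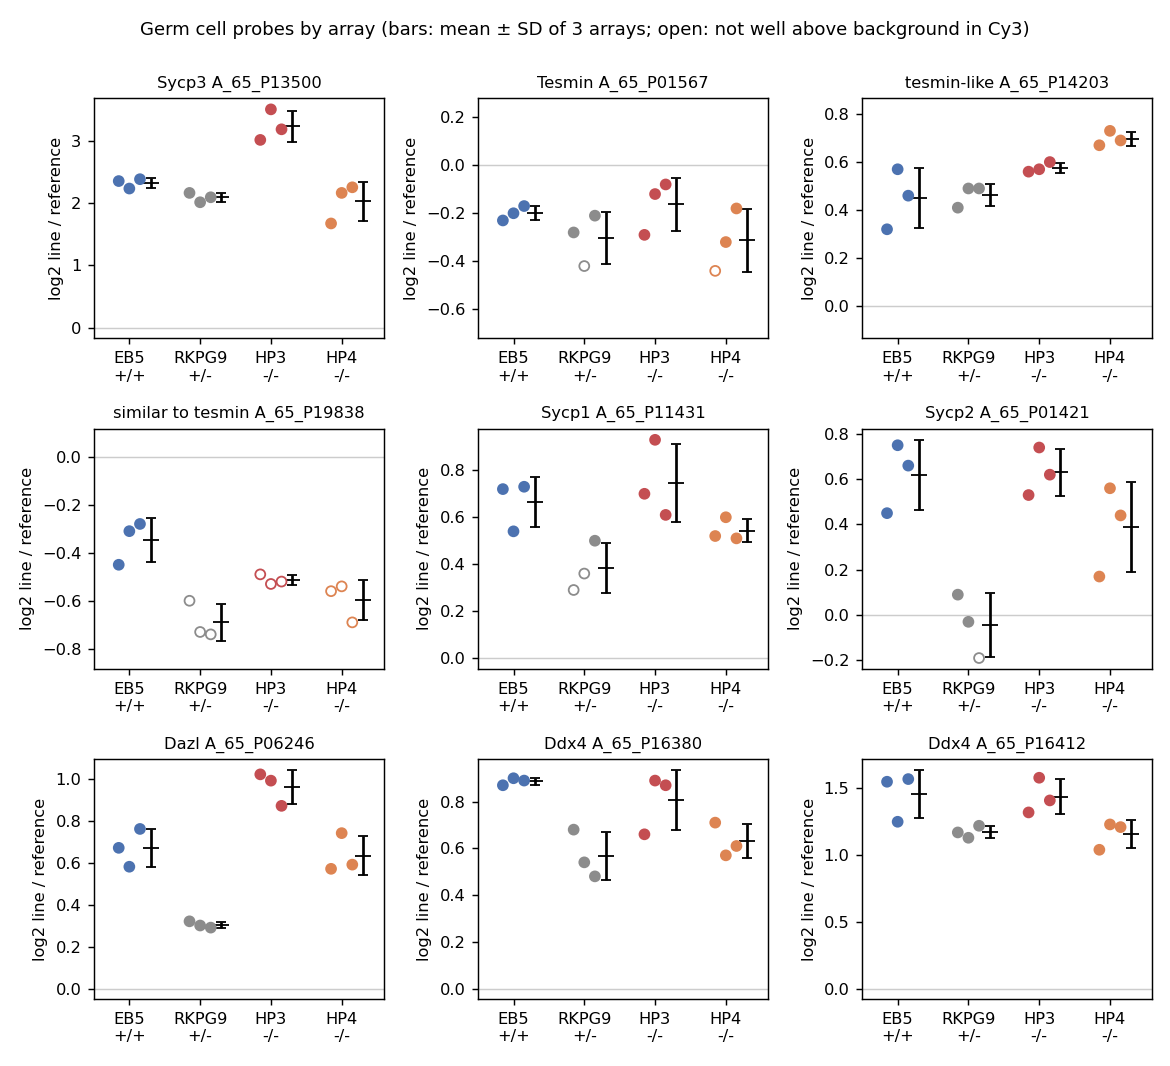
Log2 ratio of line over reference for each of the 9 germ cell probes, 1 panel per probe, with a point per array, the mean and SD of 3 arrays as a bar, and open points where Cy3 was not well above background. Sycp3 stands at 3.01 to 3.50 in HP3 and at 2.38 or less on the other arrays, while the other probes span much smaller ranges, as the differing vertical scales show.

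The rise in HP3 was present in the Cy3 signal of the line itself. After subtraction of the local background, Sycp3 gave 205, 190 and 284 scanner units on the EB5 arrays, 162, 150 and 161 on RKPG9, 280, 381 and 320 on HP3, and 120, 148 and 160 on HP4. The HP3 arrays lay above those of RKPG9 and HP4, and the lowest of them fell just under the highest EB5 array. The line's signal was well above background on all 12 arrays, but the reference signal was so on the 3 EB5 arrays alone, at 45.5 to 73.2 units over background, against 16.7 to 27.3 units on the other 9. The size of a Sycp3 ratio therefore rests on a denominator near background, and it moved with the treatment of background. On the Cy3 channel alone, without the reference, HP3 exceeded EB5 by 0.77 and RKPG9 by 1.07, and HP4 lay 0.48 below HP3 (a difference of -0.48), 0.29 above EB5 and 0.59 above RKPG9, so the place of HP4 among the lower lines turned with that choice.

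**Figure D2:**
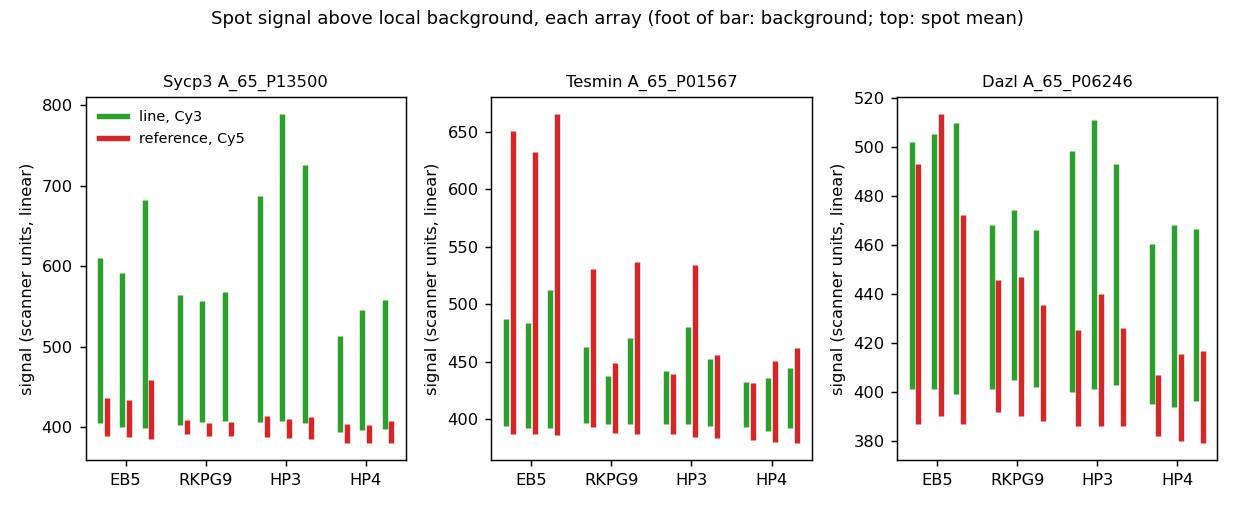
Spot signals on a linear scale for Sycp3, the main Tesmin probe and Dazl, with the line in green (Cy3) and the reference in red (Cy5); each bar runs from the local background to the spot mean of 1 array. The Cy3 bars of Sycp3 are longest on average in HP3 (mean 327 units over background), although EB5 array 3 (284) exceeds HP3 array 1 (280). The Cy5 bars of Sycp3 reach 73.2 units or less over background on every array.

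Across 10 other ways of processing the arrays, HP3 exceeded EB5 in all 10, by 0.35 to 2.91, and HP4 lay below HP3 in all 10, with differences of -1.21 to -0.48. Some of the 10 could not turn a direction. For a probe measured on every array, dim probes left out, the replicate block and only the lines compared leave the line means unchanged. HP3 exceeded RKPG9 in 9 of the 10. The exception was the table of levels that the authors deposited, where the difference was -1.70, against 3.37 from the processed signals of the scanner software. With any 1 of the 12 arrays left out, the difference of HP3 from EB5 stayed between 0.77 and 1.02, that from RKPG9 between 1.01 and 1.25, and that of HP4 from HP3 between -1.32 and -1.02.

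**Figure D3:**
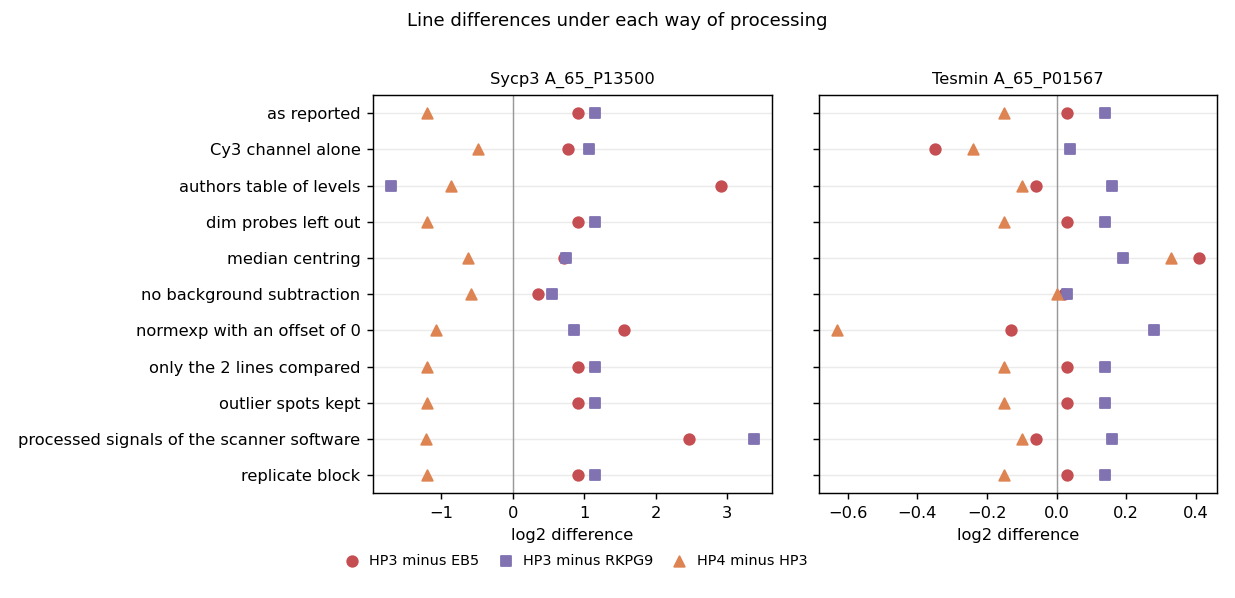
Difference in log2 units of HP3 from EB5, HP3 from RKPG9 and HP4 from HP3 for Sycp3 (left) and the main Tesmin probe (right), with 1 row for each way of processing and differing horizontal scales. For Sycp3 every circle (HP3 minus EB5) lies right of zero, from 0.35 to 2.91, and every triangle (HP4 minus HP3) left of it, and the lone square (HP3 minus RKPG9) to the left is -1.70 from the authors' table; the Tesmin points fall on both sides.

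Tesmin showed no comparable separation of the lines. The probe that carries the gene's name, A_65_P01567, gave EB5 values of -0.23, -0.20 and -0.17, RKPG9 values of -0.28, -0.42 and -0.21, HP3 values of -0.29, -0.12 and -0.08, and HP4 values of -0.44, -0.32 and -0.18. Every pair of lines overlapped, and the differences between line means ran from -0.15 (HP4 minus HP3) to 0.14 (HP3 minus RKPG9), with a standard error of 0.07. The line's signal was not well above background on 1 RKPG9 array and 1 HP4 array. The reference signal of this probe, from the same RNA on every array, ranged from 49.6 to 280 units over background, and was 246 or more on the EB5 arrays and 150 or less on the others. HP3 differed from EB5 by 0.03 as reported, by -0.35 on Cy3 alone and by 0.41 with median centring, so the direction was not settled.

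The other probes whose descriptions name tesmin gave different patterns. A_65_P19838, described only as similar to the tesmin gene, lay at -0.45 to -0.28 on EB5 arrays, -0.74 to -0.60 on RKPG9 arrays, -0.53 to -0.49 on HP3 arrays and -0.69 to -0.54 on HP4 arrays. The EB5 arrays lay above all others. All RKPG9 arrays lay below all EB5 arrays at 30.8% of all probes, and the shares for HP3 and HP4 are not given here. A_65_P19838 was not well above background in Cy3 on any array of RKPG9, HP3 or HP4, so its folds there are uncertain. As measured on the Cy3 scale, EB5 was 1.22-fold higher than RKPG9, 1.04-fold higher than HP3 and 1.11-fold higher than HP4. With median centring HP4 exceeded EB5 by 0.17, while HP3 and RKPG9 differed from EB5 by -0.10 and -0.21. A_65_P14203 carries the name of a RIKEN clone with a tesmin metallothionein-like description, and the gene it reports is not settled. It was well above background in both channels on all 12 arrays and lay at 0.32 to 0.57 for EB5, 0.41 to 0.49 for RKPG9, 0.56 to 0.60 for HP3 and 0.67 to 0.73 for HP4. All 3 HP4 arrays lay above the other 9. All HP4 arrays lay above all RKPG9 arrays at 26.8% of all probes, and the shares against EB5 and HP3 are not given here. The HP4 mean exceeded EB5 by 0.25, RKPG9 by 0.23 and HP3 by 0.12 (standard error 0.05), and with median centring these differences were -0.23, -0.17 and -0.20. Over local background, the mean Cy3 signal of A_65_P14203 was 276 units in HP4, against 373 in EB5, 384 in RKPG9 and 405 in HP3.

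The companions were tested with limma over all probes. Between HP3 and RKPG9, 4 of the 5 companion probes were higher and 0 lower, where 22.8% of all probes were called, 12.7% as higher. Dazl, which promotes the translation of germ cell messages, read 0.32, 0.30 and 0.29 in RKPG9 and 1.02, 0.99 and 0.87 in HP3. The groups did not overlap, and Dazl was 0.65 higher in HP3 (standard error 0.06, adjusted p = 8.03e-06). Sycp2, the partner of Sycp3 in the lateral element, read 0.09, -0.03 and -0.19 in RKPG9 and 0.53, 0.74 and 0.62 in HP3, with no overlap, a difference of 0.67 (standard error 0.11) and an adjusted p of 0.000743. Sycp1 rose by 0.37 (standard error 0.08, adjusted p = 0.0068), from 0.29, 0.36 and 0.50 to 0.70, 0.93 and 0.61, though on the processed signals of the scanner software its adjusted p was 0.266, and on the deposited level table it was 0.504. In RKPG9, Sycp1 was well above background in Cy3 on 1 array and Sycp2 on 2. The reference signal of Sycp1 was well above background on 0 of 3 arrays in each of RKPG9, HP3 and HP4. That of Sycp2 was so on 2 arrays in RKPG9, 2 in HP3 and 1 in HP4. The sizes of these ratios therefore rest on denominators near background. The Dazl and Sycp2 calls held in all 10 other ways of processing and with any 1 of the 12 arrays left out.

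Ddx4, the VASA helicase of germ cells, was called at 1 of its 2 probes. A_65_P16380 differed by 0.24 (adjusted p = 0.0216), with overlapping arrays, and lost its call without HP3 array 2 (adjusted p = 0.0812) or 3 (0.0853), or RKPG9 array 2 (0.0719) or 3 (0.0872). The call was also lost in 4 of the 10 other ways of processing, with an adjusted p of 0.0952 on Cy3 alone, 0.0648 with only these lines in the fit, 0.842 on the processed signals and 0.552 on the deposited level table. A_65_P16412 differed by 0.27 (adjusted p = 0.052). The reference signal of A_65_P16380 was well above background on 0 of 12 arrays.

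HP4 differed from RKPG9 at fewer of the companions. Against RKPG9, 2 of 5 companion probes were higher and 0 lower, where 40.1% of all probes were called, 20.9% as higher. Dazl read 0.57, 0.74 and 0.59 in HP4, above all RKPG9 arrays, a difference of 0.33 (standard error 0.06, adjusted p = 0.000944). Sycp2 read 0.17, 0.56 and 0.44, also above all RKPG9 arrays (a separation seen at 26.8% of all probes), and differed by 0.43 (standard error 0.11, adjusted p = 0.00777). Sycp1 differed by 0.16 (adjusted p = 0.147), and the Ddx4 probes by 0.06 and -0.01. HP3 and HP4 were both compared with the same 3 RKPG9 arrays.

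Set directly against HP3, HP4 was lower at 2 of 5 companion probes and higher at 0, where 28.6% of all probes were called, 14.8% as lower. Dazl differed by -0.32 (standard error 0.06, adjusted p = 0.00228), with all HP4 arrays below all HP3 arrays. The Dazl call held in 5 of the 10 other ways of processing, among them the ways that leave the line means unchanged. It was lost on Cy3 alone (-0.15, adjusted p = 0.169), the authors' table (-0.05, adjusted p = 0.808), the processed signals (-0.05, adjusted p = 0.803) and an offset of 0 (-0.19, adjusted p = 0.211). With median centring the direction turned (0.22, adjusted p = 0.00866). Ddx4 at A_65_P16412 differed by -0.28 (adjusted p = 0.0365), and on Cy3 alone by 0.11. That Ddx4 call held in 4 of the 10 other ways of processing. It was also lost without HP3 array 2 (adjusted p = 0.136) or 3 (0.0714), or HP4 array 1 (0.126) or 3 (0.0522). Sycp1 and Sycp2 differed by -0.21 (adjusted p = 0.0841) and -0.24 (adjusted p = 0.124).

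Against EB5, all 5 companion probes were lower in RKPG9, where 34.4% of all probes were called, 21.8% as lower, and this comparison crosses the scanner sessions. Sycp2 fell by 0.66 (adjusted p = 0.000556) from EB5 readings of 0.45, 0.75 and 0.66, and Dazl fell by 0.37 (adjusted p = 0.0005) from 0.67, 0.58 and 0.76. The Sycp2 call held in all 10 other ways of processing, while that of Dazl was lost in 3, with adjusted p of 0.233 under median centring. Sycp1 fell by 0.28 (adjusted p = 0.0214), and lost its call without EB5 array 1 (adjusted p = 0.0731) or 3 (0.0739), or RKPG9 array 1 (0.0809) or 2 (0.0626). Ddx4 fell by 0.32 at A_65_P16380 (adjusted p = 0.00282) and by 0.29 at A_65_P16412 (adjusted p = 0.0274). The call at A_65_P16380 was lost in 4 of the 10 other ways of processing: on Cy3 alone the difference was -0.09 (adjusted p = 0.411), and on the deposited level table it turned to 1.68 (adjusted p = 0.308). A_65_P16412 lost its call without EB5 array 1 (adjusted p = 0.1) or 3 (0.102), or RKPG9 array 1 (0.0646) or 2 (0.0828), and on Cy3 alone (-0.17, adjusted p = 0.0954).

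In HP3 against EB5, 1 of 5 companion probes was called, where 30.7% of all probes were, 11.4% as higher. That probe was Dazl, whose ratio was higher by 0.29 (standard error 0.06, adjusted p = 0.00339) with no overlap of arrays. The call was lost on Cy3 alone (0.18, adjusted p = 0.0612) and without background subtraction (0.03, adjusted p = 0.233). Over local background, the mean Cy3 signal of Dazl was 99.5 units for HP3, against 105 for EB5. Its reference signal was lower in HP3, between 39.2 and 54.0 units, than in EB5, between 85.0 and 123. The part of the reference signal in this Dazl difference was not tested. In HP4 against EB5, the 2 Ddx4 probes were lower, with differences of -0.26 (adjusted p = 0.00872) and -0.30 (adjusted p = 0.0179), where 45.0% of all probes were called, 26.7% as lower. On Cy3 alone these turned to 0.21 (adjusted p = 0.0257) and 0.27 (adjusted p = 0.00752). At A_65_P16412 the call was also lost without EB5 array 1 (adjusted p = 0.0675) or 3 (0.0723), or HP4 array 1 (0.0676).

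Beyond these genes, the array measured 9 of 15 genes listed for the meiotic chromosome axis and synaptonemal complex. Against RKPG9, 3 of the 8 tested besides Sycp3 were higher and 1 lower in HP3, where 22.8% of all probes were called, with a median of 0.10 over the 9 against 0.00 over all probes. Hormad1, an axis protein that senses unpaired chromosomes, was 0.49 higher (adjusted p = 0.00225), beside Sycp1 and Sycp2. Syce2, a protein of the central element, differed by -0.50 (adjusted p = 2.15e-07), and stood highest in RKPG9, at a mean of 1.40 against 0.91 to 0.99 in the other lines. In HP4 against RKPG9, where 40.1% of all probes were called, 3 were higher and 3 lower: Sycp2, Hormad1 (0.36) and the cohesin subunit gene Smc1b (0.15) were higher, and Syce2 (-0.41) and the meiotic cohesin genes Rec8 (-0.17) and Stag3 (-0.39) were lower.

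Stag3 was lower in HP4 than in each of the other lines. Its line means were 1.58 (EB5), 1.44 (RKPG9), 1.55 (HP3) and 1.05 (HP4), and HP4 differed from HP3 by -0.49 (standard error 0.06, adjusted p = 0.000148) and from EB5 by -0.53 (adjusted p = 2.79e-05), calls that held in 9 of the 10 other ways of processing. In HP4 against HP3, where 28.6% of all probes were called, 2 of 8 were lower, Stag3 and Rec8 (-0.11), and Syce2 was higher (0.09), a direction that turned with median centring and on Cy3 alone. Against EB5, Hormad1 was higher (0.28, adjusted p = 0.0402) and Rec8 lower (-0.11) in HP3. In HP4, Smc1b was higher (0.17) and Rec8 (-0.22) was lower beside Stag3, and in RKPG9 Syce2 was higher (0.45) beside the lower Sycp1 and Sycp2. Of all probes, 30.7% were called against EB5 in HP3, 45.0% in HP4 and 34.4% in RKPG9. Tex12, a partner of Syce2, was well above background on 4 arrays and passed the test in 0 of the 6 comparisons, with differences of -0.19 to 0.17.

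Genes of germ cell RNA binding and the piRNA pathway, 14 of 29 measured, were called in 1 direction between HP3 and RKPG9, with 7 higher and 0 lower, where 22.8% of all probes were called, 12.7% as higher. Their median difference was 0.26 against 0.00 over all probes, and Dazl is among the 7. Tex19.1, which restrains retrotransposons, was 0.68 higher (adjusted p = 1.18e-06), Rnf17, a tudor protein, 0.54 higher (adjusted p = 0.000286) and Tdrkh, a mitochondrial partner of Piwi proteins, 0.41 higher (adjusted p = 1.25e-05). In HP4 against RKPG9, 4 were higher, among them Tex19.1 (0.64), Tdrkh (0.45) and Rnf17 (0.24), and 1 was lower, the testis helicase gene Ddx25 (-0.28), where 40.1% of all probes were called. Tex19.1 stood at a mean of 0.76 in RKPG9 and at 1.40 to 1.43 in the other 3 lines. In HP4 against HP3, 6 were lower and 0 higher, among them Ddx25 (-0.54) and Rnf17 (-0.30), where 28.6% of all probes were called, 14.8% as lower. Against EB5, 3 were higher and 1 lower in HP3, 0 higher and 6 lower in HP4, and 0 higher and 8 lower in RKPG9, where 30.7%, 45.0% and 34.4% of all probes were called. In the 10 other ways of processing, 5 to 8 were higher and 0 lower in HP3 than in RKPG9. The counts in HP4 turned with median centring, to 7 higher and 4 lower than in EB5 and 6 higher and 3 lower than in HP3. Against EB5 they moved in other settings too. HP4 then had 3 higher and 1 lower on Cy3 alone. It had 3 higher and 4 lower from the authors' table, from the processed signals and at a normexp offset of 0. Against HP3, Cy3 alone gave 0 higher and 1 lower.

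**Figure D4:**
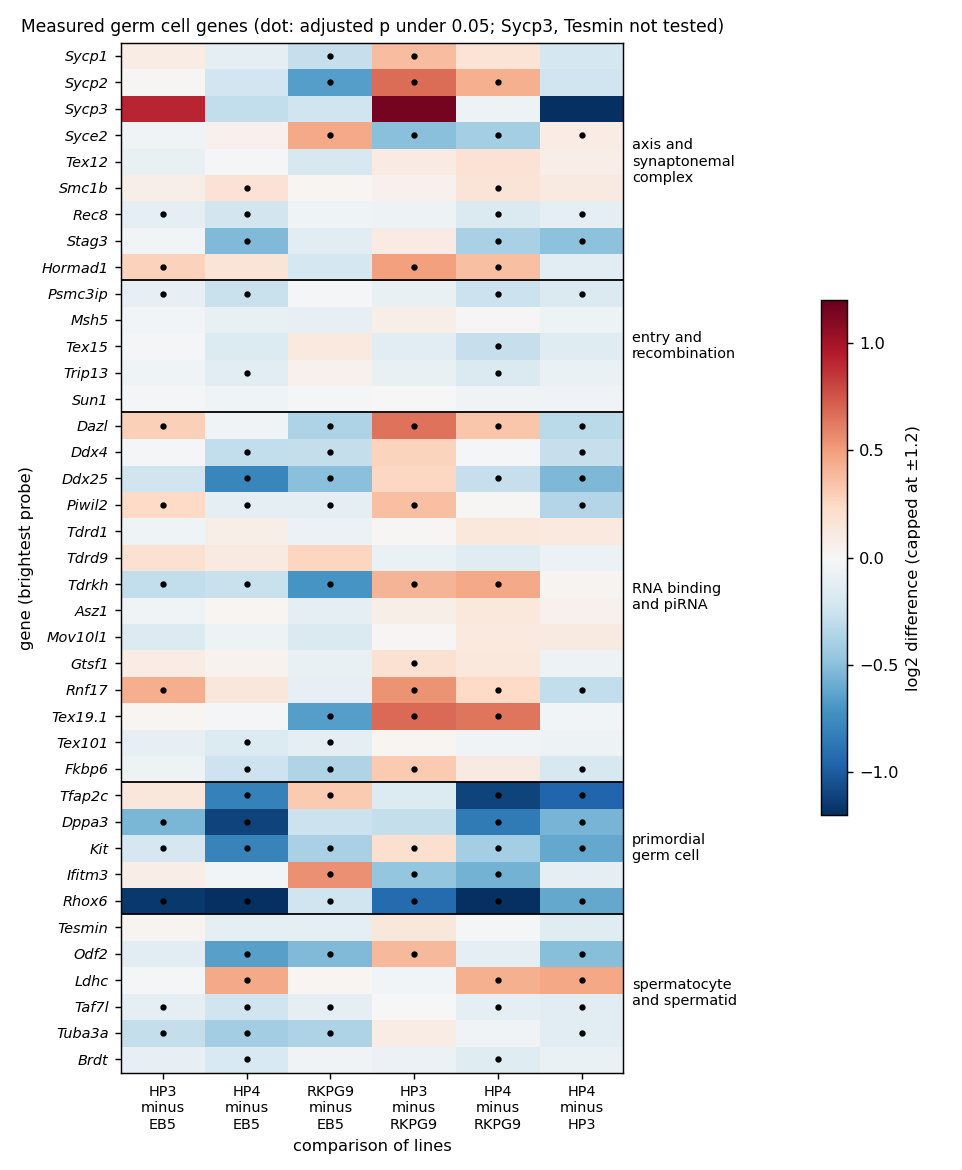
Log2 difference for each measured germ cell gene (rows, grouped by list) in each of the 6 comparisons (columns), with red higher and blue lower in the first line named, and a dot where the adjusted p was under 0.05. Sycp3 is the deepest cell in the HP4 minus HP3 column, Syce2 runs against Sycp2 in the RKPG9 columns, and the primordial germ cell genes are mostly blue in HP4.

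Genes of primordial germ cell specification were mostly lower in HP4. Of 5 measured, 3 were lower and 0 higher in HP3 than in EB5, and 4 were lower and 0 higher in HP4, with medians of -0.20 and -0.81 against -0.02 over all probes. Of all probes, 30.7% were called in HP3 and 45.0% in HP4, 26.7% as lower. Rhox6, a homeobox gene of the X chromosome, differed from EB5 by -1.16 in HP3 (adjusted p = 1.58e-06) and -1.77 in HP4 (adjusted p = 5.52e-08). Dppa3, a maternal factor that marks primordial germ cells, differed by -0.55 (adjusted p = 0.0122) and -1.11 (adjusted p = 9.6e-05). Tfap2c, a transcription factor of the germ line, differed by 0.14 (adjusted p = 0.176) in HP3 and by -0.81 in HP4 (adjusted p = 1.02e-05), and the receptor gene Kit by -0.20 (adjusted p = 0.0224) and -0.80 (adjusted p = 1.42e-06). ES cells also express these genes. In RKPG9, 2 were higher and 2 lower than in EB5 (34.4% of all probes called). Against RKPG9, all 5 were lower in HP4 (40.1% of all probes called), and in HP3 1 was higher and 2 lower (22.8%). In the 10 other ways of processing, 3 to 5 were lower and 0 higher in HP4 than in EB5. For HP3 against EB5, the authors' table and the processed signals each gave 2 higher, Kit among them, and 1 lower.

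Few later genes of spermatogenesis were measured. Of 26 genes of meiotic entry and recombination the array measured 5, and of 44 spermatocyte and spermatid genes it measured 6, Tesmin among them. In the former list 1 was lower in HP3 and 2 in HP4 than in EB5, and 0 were higher, where 30.7% of all probes were called in HP3 and 45.0% in HP4, 26.7% as lower. Psmc3ip, a recombination accessory factor, differed by -0.10 in HP3 and -0.27 in HP4, and the checkpoint ATPase gene Trip13 by -0.13 in HP4. In the latter, Tesmin aside, 2 of 5 were lower in HP3 and 4 in HP4, and 1, the testis lactate dehydrogenase gene Ldhc, was higher in HP4 by 0.45 (adjusted p = 0.000138), which turned with median centring. Odf2, of the sperm tail and the centriole, differed from EB5 by -0.65 in HP4 (adjusted p = 2.53e-06) and by -0.14 in HP3 (adjusted p = 0.052). The tubulin gene Tuba3a and the TFIID subunit gene Taf7l were lower in both Rex1-/- lines, with differences of -0.29 and -0.12 in HP3 and -0.42 and -0.24 in HP4.

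Over all 5 germ cell lists, with Sycp3 and Tesmin left aside, 37 genes were tested. In HP3, 12 were higher and 3 lower than in RKPG9, and 4 were higher and 8 lower than in EB5. In HP4, 8 were higher and 14 lower than in RKPG9, 2 were higher and 18 lower than in EB5, and 2 were higher and 16 lower than in HP3. In RKPG9, 3 were higher and 15 lower than in EB5. Of all probes, 22.8% to 45.0% were called in these comparisons. Called as lower were 26.7% in HP4 against EB5, 14.8% in HP4 against HP3 and 21.8% in RKPG9 against EB5. Called as higher were 12.7% in HP3 against RKPG9, 11.4% in HP3 against EB5 and 20.9% in HP4 against RKPG9. The balance of directions in HP4 moved with the scaling: with median centring, 13 were higher and 18 lower than in EB5, 15 higher and 14 lower than in RKPG9, and 11 higher and 15 lower than in HP3. On Cy3 alone, 10 were higher and 6 lower in HP4 than in RKPG9, and 4 higher and 11 lower than in EB5. For HP3 against EB5, the scanner software's processed signals gave 7 higher and 6 lower. Every share of all probes in this report is that of the fit as reported. Without such a share for the other settings, these counts cannot be set against a move of all probes.

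Metallothionein genes, to which Tesmin owes its name, were lower in both Rex1-/- lines than in RKPG9. Mt1 differed in HP3 and HP4 by -0.55 (adjusted p = 0.000102) and -0.68 (adjusted p = 1.59e-05), and Mt2 by -0.41 (adjusted p = 0.000422) and -0.44 (adjusted p = 0.000152). Among 18 measured genes for repressors of germ cell genes, 5 were higher and 2 lower in HP3 than in EB5, and 4 were higher and 3 lower than in RKPG9, where 30.7% and 22.8% of all probes were called. Dnmt3b, a de novo DNA methyltransferase, stood lowest in RKPG9 and was 1.09 higher in HP3 (adjusted p = 7.83e-06) and 1.11 higher in HP4 (adjusted p = 4.98e-06). Rybp, a Polycomb subunit, differed from EB5 by -0.19 in HP3 and -0.36 in HP4, and Kdm5c, a histone demethylase, by 0.18 and 0.41, of which the first turned on Cy3 alone and the second with median centring. With median centring, 1 of the 18 was higher and 3 lower in HP3 than in EB5. In HP4, 1 of the 18 was higher and 8 lower than in HP3, where 28.6% of all probes were called, 14.8% as lower. Zfp42, the targeted gene, is on this list and among the 8. The lower count was 4 at a normexp offset of 0 and 17 with median centring. Sycp3 was lower in HP4 than in HP3 as well, and the part of the repressors in the Sycp3 difference was not tested. Of the 11 gonadal somatic markers, 0 were called between HP3 and RKPG9, where 22.8% of all probes were called. In HP4 against RKPG9, 3 were higher and 2 lower, where 40.1% of all probes were called. Clu differed from EB5 by -0.77 in HP3, -0.73 in HP4 and -0.90 in RKPG9, and Fst, a secreted activin inhibitor, was 0.25 higher in HP4.

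The probes most like Sycp3 across the 12 arrays were sought among 557 gene-named probes that varied at least 0.5 times as much. By Pearson correlation, given as a description over arrays that share line, session and reference, the first was D1Pas1, a helicase gene of male germ cells close in sequence to Ddx3x (r = 0.955). Meg3, a maternally expressed noncoding RNA (r = 0.934), Sall4, a zinc finger gene of ES and germ cells (r = 0.912), 4930447C04Rik (r = 0.806) and Hook1, a microtubule linker gene (r = 0.795), followed. 4930447C04Rik, later named Six6os1, encodes a synaptonemal complex protein. Its probe spanned 2.78 to 2.94 for EB5, 1.94 to 1.99 for RKPG9, 3.03 to 3.57 for HP3 and 2.39 to 2.84 for HP4, so HP3 lay above all other arrays and RKPG9 below them. D1Pas1 read 2.81 to 3.33 in HP3 and 2.13 to 2.66 on all the other arrays. Other probes of these genes gave other values: the 4 Meg3 probes differed between HP4 and HP3 by -0.72 to -0.02, and the 4 Sall4 probes by -0.62 to -0.12.

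For the main Tesmin probe, whose spread over the arrays was small (SD 0.11), 7294 probes varied at least 0.5 times as much. The closest were Vps33a (r = 0.895), Kat8, a histone acetyltransferase (r = 0.876), Exoc6, of the exocyst (r = 0.834), Slc44a2, a choline transporter-like gene (r = 0.834), and Ss18, a chromatin remodelling subunit (r = 0.833). Vps33a, a subunit of vesicle tethering complexes, had line means from -0.11 in HP4 to -0.01 in HP3, and its arrays overlapped between those lines.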

How the data were processed

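Total RNA of 4 ES cell lines (3 arrays each) was hybridized in Cy3 against a reference RNA in Cy5 to NIA mouse oligonucleotide arrays. The deposited scanner files, made by the authors with Agilent Feature Extraction, give mean and local background intensity per spot, without normalization. Their processed intensity columns, per the file headers, are background-subtracted and dye-normalized. The authors' table holds levels on a log10 scale; its centring and steps are not given in the sources used here, and its columns had medians of 2.87 to 2.88. The files' log10 ratios were used to compare that table with the arrays.

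From the intensity values, background was corrected with normexp (offset 50), each array was loess normalized, 1824 gene spots with outlier flags were left out, and spots of a probe were averaged (limma 3.58.1, R 4.3.3). One limma fit over 12 arrays (8 residual and 3.33 prior degrees of freedom) gave differences, standard errors and, except for Sycp3 and Tesmin, p-values adjusted by Benjamini-Hochberg over the probes tested in each comparison. A probe was called at an adjusted p under 0.05. A gene with several probes was represented by the brightest, and 8564 of 20280 probes carried a current symbol. On simulated arrays for HP3 against EB5, the fit recovered 47 of 50 spiked differences at a log2 size of 0.3, 50 of 50 at 0.6, and 8 of 18850 unchanged ones. The simulation gave every probe the same average spread, with no session effect and no background floor. It therefore checks the fit and not the recovery of differences at probes near background. The alternatives were the Cy3 channel alone with quantile normalization, the authors' table, median centring, no background subtraction, an offset of 0, the software's processed signals, dim probes left out, outlier spots kept, the replicate block, only the lines compared, and each array left out.

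The genes, the gene lists and the tests were chosen with earlier results of these data known. Named were every probe of the 7 genes, every measured axis gene, up to 4 called genes of each other list with the largest change against EB5, and the 5 probes most correlated with Sycp3 and with Tesmin. Motifs were searched in RefSeq windows of 250 bases. Precision is limited by how many arrays each line has; the sequences of the probes were not used here.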

Additional observations from a re-analysis of the deposited data

Results flagged for a closer look

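At Sycp3, all HP3 arrays lay above the EB5 mean and all HP4 arrays below it, with a difference of HP4 from HP3 of -1.20; this difference was not tested. The HP4 and EB5 arrays overlapped, and HP4 minus EB5 kept its sign in 5 of 10 other ways of processing, with 0.29 on Cy3 alone and 0.08 with median centring. Among those 5 are the ways that leave the line means unchanged. HP3 and HP4 also differed in their change from EB5 at Dazl, where the difference of HP4 from HP3 was -0.32 (limma adjusted p = 0.00228), and at 1 of the 2 Ddx4 probes, A_65_P16412, where it was -0.28 (limma adjusted p = 0.0365). The Dazl direction turned with median centring and the Ddx4 direction on Cy3 alone. The Dazl call held in 5 of the 10 other ways of processing, and the Ddx4 call in 4.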

How the results depend on the processing

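The direction of Sycp3 in HP3 against EB5 and in HP4 against HP3 was the same in all 10 other ways of processing. Those 10 include ways that leave the line means unchanged and so could not turn it. For the main Tesmin probe, A_65_P01567, no comparison with EB5 kept its direction in all of them. HP3 minus RKPG9 did so in all 10, at 0.03 to 0.28, although the arrays of those lines overlapped as reported. At A_65_P14203 and A_65_P19838 that comparison also kept its direction in all 10, at 0.03 to 0.26 and 0.02 to 1.26. Several members lie close to background, in the line or in the reference, so ratios moved most where the background or the reference channel was treated differently; the cause was not tested for single values. The values that turned direction, or for Sycp3 and Tesmin moved by more than the spread between arrays, follow as log2 differences, where Tesmin stands for A_65_P01567. Of the other Tesmin probes, A_65_P19838 gave -3.05 for HP4 minus EB5 from the authors' table and 0.17 with median centring, and A_65_P14203 gave -0.03 for HP3 minus EB5 and -0.23 for HP4 minus EB5 with median centring. HP3 minus EB5 on Cy3 alone was 0.12 for Ddx4 (A_65_P16380), 0.16 for Ddx4 (A_65_P16412) and -0.35 for Tesmin. HP4 minus EB5 on Cy3 alone was 0.03 for Dazl, 0.21 for Ddx4 (A_65_P16380), 0.27 for Ddx4 (A_65_P16412), 0.06 for Sycp1, 0.29 for Sycp3 and -0.59 for Tesmin. RKPG9 minus EB5 on Cy3 alone was -0.39 for Tesmin. HP4 minus RKPG9 on Cy3 alone was 0.44 for Ddx4 (A_65_P16412), 0.59 for Sycp3 and -0.20 for Tesmin. HP4 minus HP3 on Cy3 alone was 0.10 for Ddx4 (A_65_P16380), 0.11 for Ddx4 (A_65_P16412) and -0.48 for Sycp3. HP3 minus EB5 from the authors' table was 2.82 for Ddx4 (A_65_P16380), 0.35 for Ddx4 (A_65_P16412), 2.91 for Sycp3 and -0.06 for Tesmin. HP4 minus EB5 from the authors' table was 0.96 for Dazl, 2.19 for Ddx4 (A_65_P16380), 0.11 for Ddx4 (A_65_P16412), 2.16 for Sycp1, 0.40 for Sycp2 and 2.04 for Sycp3. RKPG9 minus EB5 from the authors' table was 1.68 for Ddx4 (A_65_P16380), 0.07 for Ddx4 (A_65_P16412), 1.01 for Sycp1, 4.61 for Sycp3 and -0.22 for Tesmin. HP3 minus RKPG9 from the authors' table was -1.70 for Sycp3. HP4 minus RKPG9 from the authors' table was 0.04 for Ddx4 (A_65_P16412) and -2.57 for Sycp3. HP4 minus HP3 from the authors' table was 0.42 for Sycp1 and -0.86 for Sycp3. HP3 minus EB5 with median centring was 0.71 for Sycp3 and 0.41 for Tesmin. HP4 minus EB5 with median centring was 0.62 for Dazl, 0.09 for Ddx4 (A_65_P16380), 0.41 for Sycp1, 0.29 for Sycp2, 0.08 for Sycp3 and 0.74 for Tesmin. RKPG9 minus EB5 with median centring was -0.03 for Sycp3 and 0.22 for Tesmin. HP3 minus RKPG9 with median centring was 0.74 for Sycp3. HP4 minus RKPG9 with median centring was 0.09 for Ddx4 (A_65_P16412) and 0.53 for Tesmin. HP4 minus HP3 with median centring was 0.22 for Dazl, 0.18 for Ddx4 (A_65_P16380), 0.27 for Sycp1, 0.24 for Sycp2, -0.63 for Sycp3 and 0.33 for Tesmin. HP3 minus EB5 without background subtraction was -0.02 for Sycp2 and 0.35 for Sycp3. HP4 minus EB5 without background subtraction was 0.02 for Tesmin. RKPG9 minus EB5 without background subtraction was -0.01 for Tesmin. HP3 minus RKPG9 without background subtraction was 0.55 for Sycp3. HP4 minus RKPG9 without background subtraction was -0.0 for Ddx4 (A_65_P16380). HP4 minus HP3 without background subtraction was -0.58 for Sycp3 and -0.0 for Tesmin. HP3 minus EB5 at a normexp offset of 0 was 0.18 for Ddx4 (A_65_P16380), 0.13 for Ddx4 (A_65_P16412), 1.55 for Sycp3 and -0.13 for Tesmin. HP4 minus EB5 at a normexp offset of 0 was 0.60 for Dazl, 0.52 for Sycp1, 0.46 for Sycp3 and -0.76 for Tesmin. RKPG9 minus EB5 at a normexp offset of 0 was 0.69 for Sycp3 and -0.42 for Tesmin. HP3 minus RKPG9 at a normexp offset of 0 was 0.86 for Sycp3 and 0.28 for Tesmin. HP4 minus RKPG9 at a normexp offset of 0 was 0.15 for Ddx4 (A_65_P16412) and -0.35 for Tesmin. HP4 minus HP3 at a normexp offset of 0 was -0.63 for Tesmin. HP3 minus EB5 after the scanner software's own processing was 0.35 for Ddx4 (A_65_P16412), 2.47 for Sycp3 and -0.06 for Tesmin. HP4 minus EB5 after the scanner software's own processing was 0.96 for Dazl, 0.11 for Ddx4 (A_65_P16412), 0.40 for Sycp2 and 1.27 for Sycp3. RKPG9 minus EB5 after the scanner software's own processing was 0.07 for Ddx4 (A_65_P16412), -0.90 for Sycp3 and -0.22 for Tesmin. HP3 minus RKPG9 after the scanner software's own processing was 3.37 for Sycp3. HP4 minus RKPG9 after the scanner software's own processing was 0.04 for Ddx4 (A_65_P16412), -0.07 for Sycp1 and 2.16 for Sycp3.

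Germ cell list genes called in HP3 against EB5 went from 12 to 5 on Cy3 alone, and in HP4 against HP3 from 18 to 5. In HP4 against EB5 they went from 20 to 31 with median centring. In RKPG9 against EB5 they went from 18 to 10 from the authors' table and after the scanner software's own processing. The share of all probes called under these settings is not given here, so the counts cannot be set against it.

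With each array left out in turn, Dazl ranged from -0.09 to 0.01 in HP4 minus EB5. Ddx4 (A_65_P16412) ranged from -0.12 to 0.04 in HP3 minus EB5 and from -0.05 to 0.05 in HP4 minus RKPG9. In HP3 minus EB5, Sycp1 ranged from -0.0 to 0.16 and Sycp2 from -0.07 to 0.07. Sycp3 kept its direction in every comparison except HP4 minus RKPG9, which ran from -0.17 to 0.12. Tesmin (A_65_P01567) changed direction in HP3 minus EB5 (-0.01 to 0.10) and HP4 minus RKPG9 (-0.07 to 0.05). Counts of germ cell genes called ran from 8 to 13 for HP3 against EB5, 17 to 21 for HP4 against EB5, 12 to 18 for RKPG9 against EB5, 13 to 17 for HP3 against RKPG9, 18 to 23 for HP4 against RKPG9 and 12 to 19 for HP4 against HP3.

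Arrays with the same replicate number in different lines correlated in their deviations at -0.18 to 0.19, so the numbers were not taken as pairs. With the replicate block, germ cell genes called numbered 11 for HP3 against EB5, 20 for HP4 against EB5, 18 for RKPG9 against EB5, 14 for HP3 against RKPG9, 21 for HP4 against RKPG9 and 16 for HP4 against HP3. The block ended 1 companion call, that of Ddx4 (A_65_P16412) in HP4 minus HP3 (-0.28, adjusted p = 0.0506).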
